A study of Bos taurus with 9 samples.

Results

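Solute carriers are membrane proteins that move ions, amino acids, sugars, metals, nucleosides and metabolites across the cell surface and the membranes of organelles. The 168 genes described here had a symbol that begins with SLC and a number, and a probe set (a group of short array probes that reads 1 transcript) annotated to that symbol alone. They are 168 of the 9155 genes with such a probe set. The annotation holds 179 such SLC genes in all, and 11 were set aside by the rule: SLC4A11, SLC38A2, SLC6A6, SLC7A5, SLC1A5, SLC3A2, SLC20A1, SLC2A1, SLC2A3, SLC16A1 and SLC16A3. Of the 168 members, 119 had 1 probe set and 49 had more, and each gene was read from its probe set with the highest mean over the 9 arrays.

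RNA came from cultured nucleus pulposus cells of cattle. These cells form the soft core of the intervertebral disc, and here were taken from tail discs of young calves. Cells were plated in DMEM with 10% FBS and then left untreated (control, 3 arrays), or held with added salt at 500 mOsm/kg for 5 h (3 arrays) or 24 h (3 arrays). The labels give no time for the control, and the same 3 control arrays serve both times, so time in culture and salt cannot be told apart. The labels call the arrays biological replicates 1 to 3 without naming the donor animals. A p-value of the first fit below sets a difference against the spread among these cultures, whatever their source. In the second fit, which compares arrays within a replicate number, the spread between numbers is taken out first.

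When the fluid around a cell becomes hyperosmotic, water leaves and the cell shrinks. Cells are known to restore volume first with inorganic ions, through sodium-potassium-chloride cotransport and sodium-proton exchange, and later with organic osmolytes such as taurine, betaine, myo-inositol and neutral amino acids, most of which enter through solute carriers. Nucleus pulposus cells live in a matrix whose fixed charge keeps tissue osmolality high and varying. Other solute carriers bring nucleotide sugars and sulphate donor into the Golgi, where the chains of cartilage-type proteoglycans are built. SLC5A3 and SLC6A12, which carry myo-inositol and betaine, were among 16 of 37 genes chosen by name that had no single-symbol probe set here. These 16 were not analysed here. The others included SLC12A7, SLC9A2, SLC9A3R1, SLC38A1, SLC38A4, SLC7A2, SLC26A2, SLC35B3, SLC35D1, SLC40A1, SLC44A1 and SLC2A10. SLC5A11, of the same family as SLC5A3, was tested and is given below with the sugar carriers.

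The median intensity of an array lay between 67.1 and 84.5, and the correlation between any 2 arrays over probe sets lay between 0.871 and 0.9855. A principal component analysis placed the replicate 3 arrays of all 3 groups apart on its first axis (47.7% of the variance) and the 24 h arrays on its second (31.1%). Of 14 markers of nucleus pulposus and chondrocyte-type cells, 6 had a probe set. The aggrecan gene ACAN had means of 1261 in control, 1053 at 5 h and 2995 at 24 h, and COL2A1, the main cartilage collagen, 182.2, 121.3 and 130.3. The notochord-type keratins KRT8, KRT18 and KRT19 lay near the floor, at control means of 18.53, 21.4 and 5.2.

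Of the 168 members, 133 had a mean at or above the 25th percentile of all probe sets (an intensity of 17.1) and were tested. The remaining 35 lay below it. Changes are differences of log2(intensity + 16), and a gene is said to have risen or fallen where limma's Benjamini-Hochberg adjusted p over the 18012 tested probe sets was under 0.05. In bulk RNA, a change in the number of cells of a type and a change in RNA per cell cannot be told apart.

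At 5 h, 0 of 133 members rose or fell by limma's test, where 0.483% of all tested probe sets were called (0.233% higher, 0.25% lower), and 3 members had an unadjusted p under 0.05. The median change over members was -0.03, and over all tested probe sets also -0.03. At 24 h against control, SLC7A7, SLC29A2 and SLC37A1 rose and SLC25A5 fell, which is 3.01% of the members against 8.61% of all tested probe sets (4.28% higher, 4.32% lower). At 24 h against 5 h, 7 members rose and 2 fell, or 6.77% of members against 14.2% of all probe sets (8.01% higher, 6.15% lower). Over the 7916 tested genes with a symbol, each read from its brightest probe set like the members, 5.13% rose and 5.65% fell at 24 h, and 9.1% and 7.91% against 5 h. The medians over members were 0.03 at 24 h against control and 0.08 at 24 h against 5 h, beside 0.02 and 0.06 over all tested probe sets.

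Arrays with the same replicate number deviated together, so the fit was repeated with the number as a block, which compares arrays within a number. With the replicate block, SLC43A2 and SLC25A51 fell at 5 h, 2 of 133 members, beside 5.86% of all probe sets called (2.45% higher, 3.41% lower). At 24 h 18 members rose and 26 fell, 33.1% of the members, beside 35.8% of all probe sets (18.3% higher, 17.5% lower). Against 5 h, 27 rose and 25 fell at 24 h, 39.1% of the members beside 43.8% of all (24.2% higher, 19.6% lower). In each comparison the members' share lay below that of all probe sets, a difference that was not tested. Leaving out replicate numbers 1, 2 and 3 in turn left 27, 33 and 17 members called at 24 h with the block, and 13 were called in each of these 3 fits: SLC7A7, SLC39A8, SLC25A1, SLC37A1, SLC17A9, SLC19A1, SLC7A1, SLC25A15, SLC25A16, SLC25A5, SLC35A3, SLC35B1 and SLC51B. For fits that left out arrays, here and below, no share over all probe sets is given. Their counts thus do not set the members apart from other genes.

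The split between higher and lower calls moved with the scaling of the arrays. Centring each array on its median shifted the median over all tested probe sets from 0.02 to -0.05 at 24 h and from 0.06 to -0.10 at 24 h against 5 h. It turned the median over members from -0.03 to 0.05 at 5 h, from 0.03 to -0.04 at 24 h, and from 0.08 to -0.08 at 24 h against 5 h. In the centred arrays 1 member rose and 3 fell at 24 h, and 0 rose and 7 fell against 5 h. Of all tested probe sets, 7.38% and 13.4% were called there. With the block and centring, 11 rose and 30 fell at 24 h, of which 11 and 26 were called in both scalings. SLC4A7, SLC25A25, SLC27A1 and SLC66A2 fell only with the block and centring together. Dimmer second probe sets of SLC25A25 and SLC27A1 gave changes of 0.03 and 0.14 at 24 h before centring. Against 5 h, 17 rose and 32 fell with the block and centring. That fit called 35.9% of all tested probe sets at 24 h and 44.5% against 5 h. Quantile normalization gave 1 rise and 2 falls at 24 h and 1 rise and 4 falls against 5 h, beside 8.04% and 12.5% of all tested probe sets. Every gene said to have risen or fallen kept its direction in the centred arrays.

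**Figure D1:**
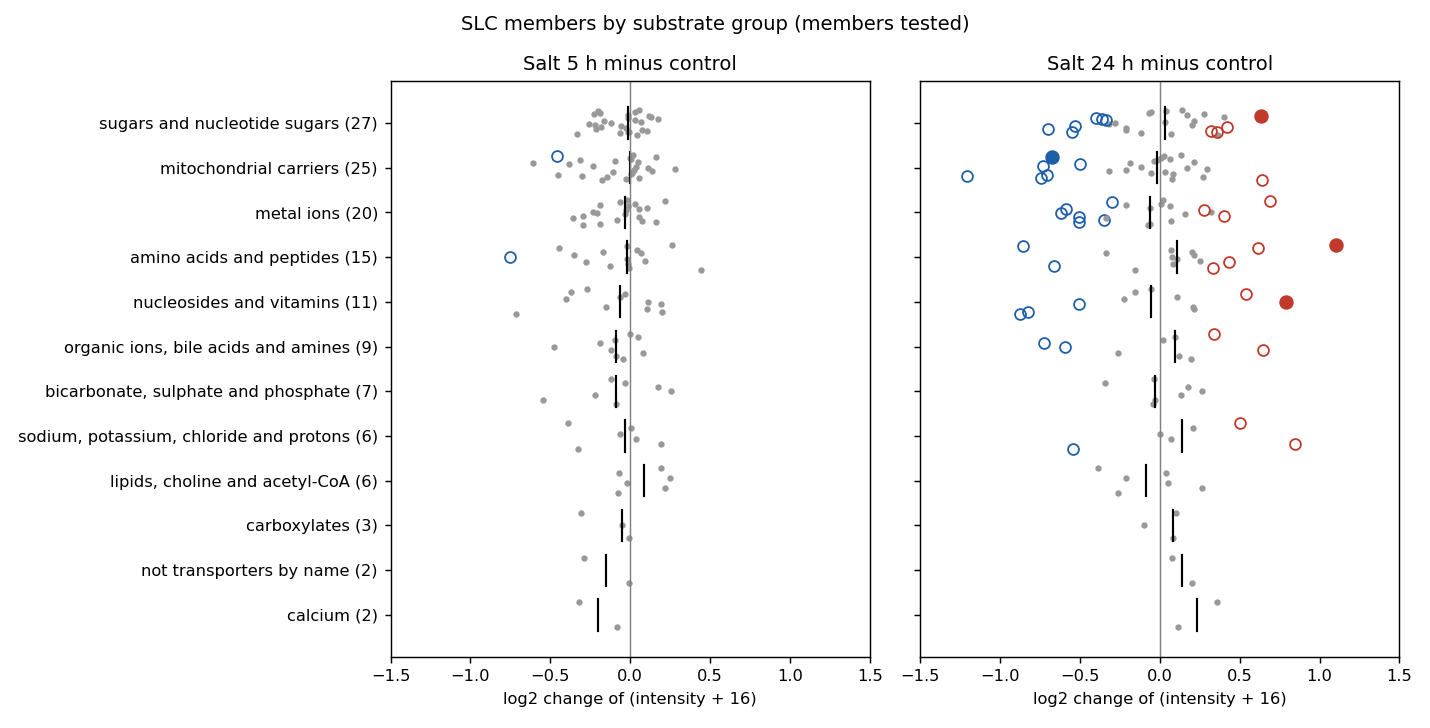
Change of each tested member by substrate group, as the difference in log2(intensity + 16) from control at 5 h (left) and 24 h (right). Filled circles were called by limma without the block, open circles with the replicate block only (red higher, blue lower), grey points by neither, and black bars are group medians; the 24 h panel holds 44 circles over 7 groups and the 5 h panel 2.

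Of the carriers of sodium, potassium, chloride and protons, 6 were measured and tested. At 24 h 0 passed limma's test without the block, where 3 had an unadjusted p under 0.05. With the block SLC12A2 and SLC9A5 rose and SLC12A1 fell, 50% of the group beside 35.8% of all tested probe sets. Here and in the later groups, the difference from that share was not tested. No share over all probe sets was computed for unadjusted p. SLC12A2 encodes NKCC1, the sodium-potassium-chloride cotransporter that loads salt into shrunken cells. Its intensities were 249, 190.2 and 141 in control, 204, 233 and 216 at 5 h, and 262, 599 and 276 at 24 h, in the order of replicates 1 to 3. All 24 h arrays lay above all control arrays, and replicate 2 at 24 h stood well above the others. The change at 24 h was 0.85 ± 0.32 (SE; adjusted p = 0.15, and 0.022 with the replicate block). Within replicate numbers it was 0.07, 1.58 and 0.90, and the call with the block was kept in 1 of the 3 fits without a replicate number. The second SLC12A2 probe set gave a change of 0.84 at 24 h.

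SLC9A5, a sodium-proton exchanger of endosomes and the cell surface, read 45.6, 74.9 and 71.4 in control, 33, 53.8 and 47.6 at 5 h, and 90.2, 100 and 96.1 at 24 h. The 24 h arrays lay above all others, and each 5 h array lay below the control array of its number. The rise from 5 h to 24 h was 0.89 ± 0.21 (adjusted p = 0.025), the largest rise of the 7 called between these times without the block. It was called in 5 of 9 fits that left out 1 array, and its adjusted p reached 0.097 without replicate 1 at 5 h. SLC12A1, the kidney-type sodium-potassium-chloride cotransporter, lay near the floor and fell with the block, from a control mean of 37.8 ± 11.3 (SD, n = 3) to 20.4 ± 2.62 at 24 h (adjusted p = 0.021 with the block). SLC12A4, the potassium-chloride cotransporter KCC1, which lets salt out of swollen cells, had means of 424 ± 123, 404 ± 116 and 418 ± 81, a change of 0.00 ± 0.29 at 24 h.

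Of the 2 tested calcium carriers, 0 rose or fell against control by limma's test, and 0 had an unadjusted p under 0.05. SLC8B1, the sodium-calcium exchanger of the mitochondrial inner membrane, read 152, 201 and 174 in control, 132, 169.5 and 113 at 5 h, and 224, 216 and 246 at 24 h. All 3 arrays at 24 h lay above all the others. The rise from 5 h was 0.68 ± 0.19 (adjusted p = 0.044, and 0.11 in centred arrays). It was called in 1 of 9 fits that left out 1 array, and its adjusted p reached 0.14 without replicate 1 at 5 h. SLC8A1, the sodium-calcium exchanger of the cell surface, changed by 0.11 ± 0.35 at 24 h (adjusted p = 0.92), and its 3 tested probe sets gave values of both signs.

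Of the 7 tested members for bicarbonate, sulphate and phosphate, 0 passed limma's test at 24 h, with or without the block, and 0 had an unadjusted p under 0.05 without it. With the block and centring 1 fell, SLC4A7. SLC4A7, a sodium-bicarbonate cotransporter, had means of 439.6 ± 163 in control and 347 ± 150.5 at 24 h, with overlapping groups (change -0.35 ± 0.33, adjusted p = 0.63, 0.063 with the block, and 0.043 with centring added). SLC4A4, another sodium-bicarbonate cotransporter, lay at 15.2 ± 4 and 19.1 ± 2.17, near the floor. SLC20A2, a sodium-phosphate cotransporter, had a mean of 110.0 ± 27.1 in control, 69.5 ± 13.7 at 5 h and 109 ± 36.5 at 24 h, and its rise from 5 h to 24 h was called with the block (0.52 ± 0.19 by the block's SE, adjusted p = 0.045) but not in centred arrays (adjusted p = 0.12 with the block).

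Amino acid and peptide carriers were 24 members, of which 15 were tested. At 24 h SLC7A7 rose, 1 of 15 or 6.67%, beside 8.61% of all tested probe sets. With the block 4 rose and 2 fell, 40% of the group beside 35.8% of all. SLC7A7 encodes the light chain y+LAT1, which exchanges cationic for neutral amino acids at the cell surface. It read 29.4, 18.5 and 29.1 in control, 29.8, 28.7 and 43.6 at 5 h, and 65, 88 and 67.6 at 24 h. At 24 h every array lay above all the others, while control and 5 h overlapped. The rise at 24 h was 1.11 ± 0.19 (adjusted p = 0.014, and 0.024 in centred arrays), the largest of any tested member. It was called in 8 of 9 fits that left out 1 array, and the adjusted p was 0.062 without control replicate 2. Against 5 h it was 0.84 ± 0.19 (adjusted p = 0.022, and 0.064 in centred arrays).

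SLC7A7 is also known from monocytes and macrophages. Of 7 leukocyte markers 6 had a probe set, and their summed intensity lay between 221 and 246.8 in control and between 429.3 and 467.4 at 24 h. The marker that passed was CD14, a lipopolysaccharide co-receptor, which rose from 95.57 to 285.6 (change 1.43, adjusted p = 0.0054). PTPRC, CD68, CSF1R, CD3E and AIF1 did not pass. Their control means were 14.63, 42.63, 14.77, 39.37 and 24.27, and their 24 h means were higher, at 26.67, 44.6, 16.87, 41.37 and 33.93. SLC11A1, a member that serves as the metal transporter of macrophage phagosomes, had means of 35.6 ± 18.4 in control and 32.6 ± 14.5 at 24 h. The part of leukocytes in the SLC7A7 rise was not tested.

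SLC7A1 and SLC1A4, carriers of the cell surface, fell at 24 h with the block. SLC7A1, the cationic amino acid transporter CAT-1, read 442, 409 and 172 in control, 423, 432 and 162 at 5 h, and 207, 172 and 130.5 at 24 h. Replicate 3 was low in every group, and each 24 h array lay below the control array of its number by 1.04, 1.17 and 0.36 on the log2 scale. The fall was -0.86 ± 0.44 (adjusted p = 0.30, and 0.0045 with the block). SLC1A4, which exchanges alanine, serine and cysteine, fell with the block from 201 ± 66.2 to 121 ± 45.8 (change -0.66 ± 0.34, adjusted p = 0.29, and 0.0061 with the block), and its second probe set gave -0.49. SLC6A9, the glycine transporter GlyT1, read 127, 62.7 and 6.2 in control and 187, 173 and 7.5 at 24 h. Replicate 3 was near the floor in every group, and the rise of 0.62 was called with the block (adjusted p = 0.043) but not with centring added (adjusted p = 0.063). From 5 h, where it read 83.6, 44.9 and 0.4, SLC6A9 rose by 1.06 with the block (adjusted p = 0.0029, and 0.0056 with centring added; 0.57 without the block), a call kept without each replicate number in turn.

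SLC43A2, the large neutral amino acid transporter LAT4, was the member with the lowest change at 5 h. It read 125, 135 and 172 in control, 63, 96.7 and 78.2 at 5 h, and 162, 134 and 161 at 24 h. All 5 h arrays lay below the arrays of both other groups, which overlapped each other. The change at 5 h was -0.75 ± 0.20 (adjusted p = 0.22, and 0.024 with the block), and SLC43A2 rose again from 5 h to 24 h by 0.83 ± 0.20 (adjusted p = 0.026, and 0.079 in centred arrays). That rise was called in 5 of 9 fits that left out 1 array (adjusted p = 0.10 without replicate 1 at 5 h). SLC38A7, a glutamine transporter of lysosomes, followed the same order, with means of 231 ± 24.4, 187 ± 15 and 318 ± 31.7, and rose by 0.71 ± 0.16 from 5 h (adjusted p = 0.021, and 0.074 in centred arrays). SLC15A4, a peptide and histidine transporter of lysosomes, rose with the block at 24 h by 0.33 (adjusted p = 0.043), a call not kept with centring (0.091).

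Sugar and nucleotide sugar carriers were the group with the most members, 31, of which 27 were tested. Members were placed mainly by SLC family number. The group thus also holds SLC35B1 and SLC35B2, named below as ATP and PAPS carriers. SLC35E3, SLC35F5 and SLC35F6 were placed by family too, and their substrates were not examined. The counts are of the group as placed, not of sugar carriers alone. SLC37A1 rose at 24 h without the block, 3.7% of the group beside 8.61% of all tested probe sets. With the block 4 members rose and 6 fell, 37% of the group beside 35.8% of all. SLC37A1 encodes a glucose-6-phosphate and phosphate exchanger of the endoplasmic reticulum. It read 153, 160.1 and 193 in control, 183, 179.6 and 187 at 5 h, and 291, 249.7 and 267 at 24 h. Each array at 24 h lay above all others, and the 5 h arrays lay within the control range. The rise was 0.63 ± 0.15 (adjusted p = 0.04, and 0.10 in centred arrays). It was called in 1 of 9 fits that left out 1 array and reached an adjusted p of 0.15 without replicate 1 at 24 h, while with the block the adjusted p was 0.003.

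Golgi carriers for glycan building did not move as 1 group. SLC35A3, which brings UDP-N-acetylglucosamine into the Golgi, read 222, 204 and 312 in control, 212, 210.4 and 198 at 5 h, and 142, 115 and 178 at 24 h. Arrays at 24 h lay below all the others, and the fall was -0.70 ± 0.21 (adjusted p = 0.078, and 0.0052 with the block). SLC35B2, which brings in the sulphate donor PAPS, changed by 0.20 ± 0.25 at 24 h (adjusted p = 0.72, and 0.11 with the block), from 852 ± 209.8 to 979 ± 205. SLC35A1, the CMP-sialic acid carrier, rose with the block from 709 ± 89.9 to 888 ± 87 (change 0.32, adjusted p = 0.021), a call not kept with centring (0.062). SLC35A5 rose with the block from 714 ± 190.2 to 948 ± 163 (change 0.42, adjusted p = 0.020), while 1 of its 3 other probe sets gave -0.03.

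SLC35B1, an ATP carrier of the endoplasmic reticulum, read 1622, 1759.6 and 1363 in control, 1629, 1841 and 1154 at 5 h, and 1156, 1295 and 849 at 24 h. The 3 arrays at 24 h lay below all control arrays, and each lay below its own 5 h array. The fall was -0.53 ± 0.22 (adjusted p = 0.17, and 0.0017 with the block). SLC2A8, the intracellular glucose transporter GLUT8, fell with the block from 162 ± 52.6 to 104 ± 23.1 (change -0.55 ± 0.35, adjusted p = 0.41, and 0.022 with the block). SLC2A6, a lysosomal member of the same family, rose with the block by 0.36 (adjusted p = 0.032), a call not kept with centring (0.072). SLC5A11, of the same family as the unmeasured SLC5A3, did not pass. It changed by -0.20 at 5 h and by 0.04 at 24 h (adjusted p = 0.97 at 24 h, and 0.89 with the block). The other 3 members that fell with the block were SLC35E3, SLC35F5 and SLC35F6, with changes of -0.34, -0.36 and -0.40.

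**Figure D2:**
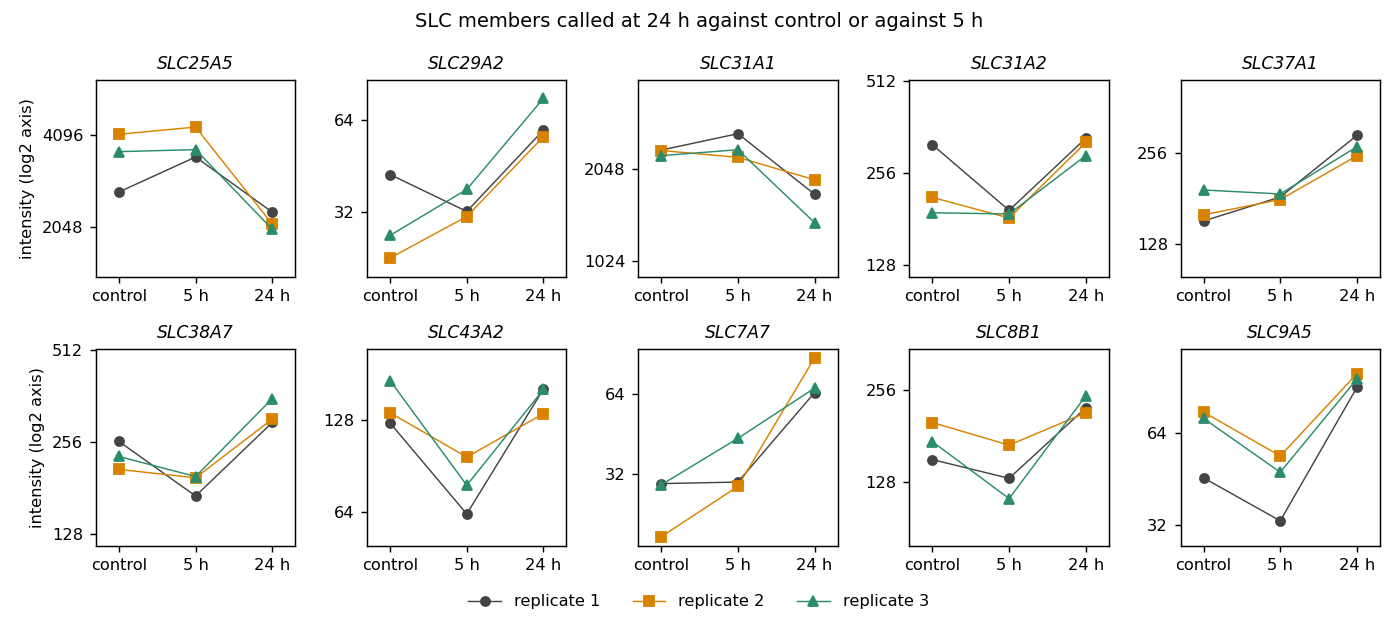
Intensity on a log2 axis of the 10 members called by limma at 24 h against control or against 5 h, for control, 5 h and 24 h, with 1 line per replicate number. In the 24 h arrays SLC25A5 and SLC31A1 lie below every other array and SLC7A7, SLC29A2, SLC37A1, SLC8B1, SLC9A5 and SLC38A7 above; SLC43A2 and SLC31A2 overlap control.

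Metal ion carriers were 21 members, of which 20 were tested. At 24 h 0 passed limma's test without the block, where 5 had an unadjusted p under 0.05. With the replicate block 3 rose and 6 fell, 45% of the group beside 35.8% of all tested probe sets. The pair of copper carriers moved in opposite directions between 5 h and 24 h. SLC31A1, the copper importer CTR1, read 2369, 2361 and 2271 in control, 2681, 2243 and 2376 at 5 h, and 1698, 1894 and 1371 at 24 h. The 24 h arrays lay below all the others. The change was -0.50 ± 0.13 against control (adjusted p = 0.053, 0.034 in centred arrays and 0.0053 with the block), and SLC31A1 fell against 5 h by 0.56 on the log2 scale (SE 0.13, adjusted p = 0.027). That call was kept in 5 of 9 fits that left out 1 array, with an adjusted p of 0.11 without replicate 1 at 5 h.

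SLC31A2, a related copper carrier of endosomes and lysosomes, read 317, 213 and 189.7 in control, 193, 182 and 188 at 5 h, and 333, 322 and 292 at 24 h. All 3 arrays at 24 h lay above all 5 h arrays and overlapped control, through control replicate 1. The rise from 5 h was 0.70 ± 0.20 (adjusted p = 0.047, and 0.085 in centred arrays). It was called in 2 of 9 fits that left out 1 array (adjusted p = 0.15 without replicate 1 at 24 h).

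Zinc carriers of the ZIP family, which bring zinc into the cytosol, moved both ways with the block. SLC39A8, or ZIP8, which also carries manganese, read 72.2, 62.6 and 104 in control, 95.6, 76.9 and 111 at 5 h, and 108, 138 and 167 at 24 h. At 24 h every array lay above all control arrays, and the rise was 0.69 ± 0.23 (adjusted p = 0.11, and 0.0045 with the block). SLC39A14, or ZIP14, its close relative, had means of 1181 ± 50.4 in control, 1229 ± 107 at 5 h and 802 ± 231 at 24 h. The arrays at 24 h lay below all the others, and the fall was -0.59 ± 0.20 (adjusted p = 0.11, and 0.010 with the block).

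SLC39A11 fell with the block from 438 ± 111 to 276 ± 25 (change -0.62, adjusted p = 0.0087), and SLC39A7, which releases zinc from the endoplasmic reticulum, from 1705 ± 409.8 to 1395 ± 424 (change -0.30, adjusted p = 0.034). SLC39A13, or ZIP13, rose with the block by 0.28 (adjusted p = 0.042), not with centring added (0.11). The ZnT family carries zinc out of the cytosol. SLC30A1, the zinc exporter of the cell surface, read 114, 86.8 and 37.5 in control and 52, 79.5 and 22.7 at 24 h. The groups overlapped, each array fell within its number, and the change was -0.50 ± 0.45 (adjusted p = 0.59, and 0.041 with the block). SLC30A5, a zinc carrier of the secretory pathway, fell with the block from 837 ± 91.3 to 654 ± 45.3 (change -0.35, adjusted p = 0.015).

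Mitochondrial carriers of the SLC25 family, which move metabolites across the inner membrane, were 27 members, of which 25 were tested. SLC25A5 fell at 24 h without the block, 4% of the group beside 8.61% of all tested probe sets. With the block 1 member rose and 6 fell, 28% of the group beside 35.8% of all. SLC25A5 encodes the ADP/ATP carrier ANT2. It read 2674, 4131 and 3624 in control, 3481, 4362 and 3679.6 at 5 h, and 2297, 2099 and 2019 at 24 h. Each array at 24 h lay below all the others, and control and 5 h overlapped. The fall was -0.68 ± 0.16 against control (adjusted p = 0.039) and -0.84 ± 0.16 against 5 h (adjusted p = 0.014). The fall against 5 h was called in all 9 fits that left out 1 array, and the fall against control in 2 of 9, with an adjusted p of 0.13 without control replicate 2.

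The second SLC25A5 probe set disagreed, with a change of 1.25 at 24 h that did not pass (adjusted p = 0.32). The mean of both probe sets changed by 0.29 at 24 h (adjusted p = 0.74). The carriers SLC25A4, SLC25A5 and SLC25A6 are close relatives, and whether a probe set reads more than 1 of them was not tested. As the SLC25A5 probe sets disagree, the fall of SLC25A5 is uncertain. SLC25A4, or ANT1, changed by -0.04 ± 0.11 at 24 h. SLC25A6, or ANT3, changed by 0.13 ± 0.14 at its brightest probe set, and its other 2 probe sets gave 0.58 (adjusted p = 0.034) and -0.48 (adjusted p = 0.16).

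SLC25A15, the ornithine carrier that links mitochondria to polyamine and urea-cycle metabolism, had the greatest fall of any tested member at 24 h. It read 322, 249 and 72.5 in control, 208, 256 and 53.9 at 5 h, and 112, 97.1 and 28.6 at 24 h. Replicate 3 was low in every group, so the groups overlapped, and within replicate numbers the fall was 1.40, 1.23 and 0.99 on the log2 scale. The change was -1.21 ± 0.67 (adjusted p = 0.34, and 0.00041 with the block). SLC25A1, the citrate carrier that feeds fatty acid and sterol synthesis, was the member of its family that rose with the block. It read 1779.7, 1557 and 814 in control, 1504, 1473 and 699 at 5 h, and 3244, 1978 and 1355 at 24 h. Each 24 h array lay above the control array of its number, and the rise was 0.64 ± 0.42 (adjusted p = 0.43, and 0.0033 with the block).

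SLC25A12, an aspartate/glutamate carrier of the malate-aspartate shuttle, fell with the block from 416 ± 131 to 235 ± 16.5 (change -0.75, adjusted p = 0.010). Its 24 h arrays lay below all others, and its other 2 probe sets gave -0.42 and -0.56. SLC25A33, a pyrimidine nucleotide carrier, fell with the block from 165 ± 14.5 to 94.3 ± 20.3 (change -0.73, adjusted p = 0.0064). SLC25A16 fell with the block from 234 ± 29.2 to 138 ± 23.4 (change -0.71, adjusted p = 0.0057), and SLC25A34 from 46.8 ± 11.3 to 28.9 ± 12.3 (change -0.50, adjusted p = 0.025). A second, dimmer SLC25A34 probe set gave -0.03. SLC25A3, the phosphate carrier, did not pass, at 6512 ± 825 in control and 5964 ± 305 at 24 h. SLC25A51, the carrier of NAD, read 193, 221 and 198 in control, 132, 155 and 146 at 5 h, and 219, 216 and 190.4 at 24 h. Its 5 h arrays lay below all the others, and the fall at 5 h was -0.46 ± 0.15 (adjusted p = 0.40, 0.047 with the block, and 0.097 with centring added).

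**Figure D3:**
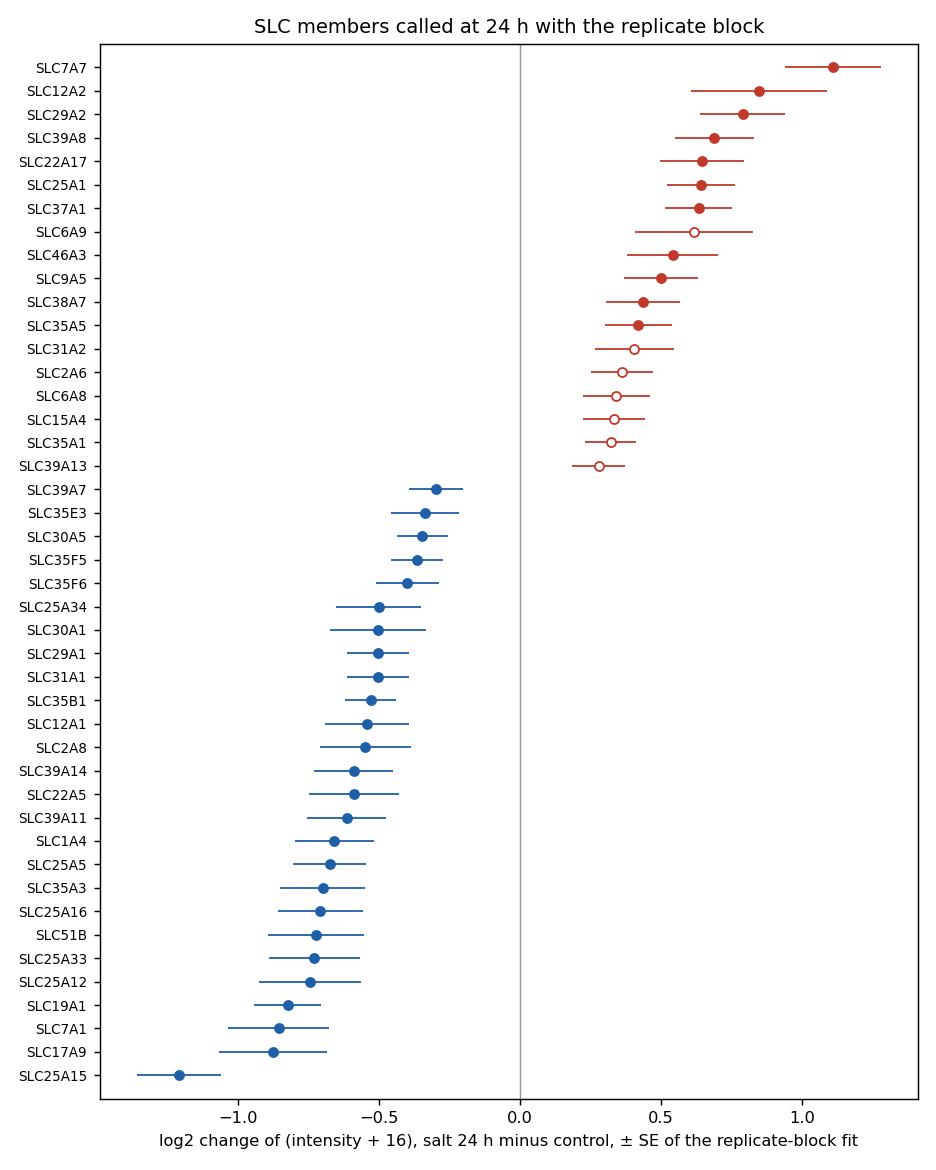
Change at 24 h against control, as the difference in log2(intensity + 16), of the 44 members called with the replicate block, with the standard error of that fit. Filled points were also called with each array centred on its median and open points were not; 18 members lie above 0, from SLC39A13 at 0.28 to SLC7A7 at 1.11, and 26 below, down to SLC25A15 at -1.21.

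Nucleoside and vitamin carriers were 13 members, of which 11 were tested. SLC29A2 rose at 24 h without the block, 9.09% of the group beside 8.61% of all tested probe sets. With the block 2 rose and 3 fell, 45.5% of the group beside 35.8% of all. SLC29A2 and SLC29A1 encode ENT2 and ENT1, the equilibrative nucleoside transporters of the cell surface. SLC29A2 read 42.4, 22.6 and 26.8 in control, 32.1, 30.9 and 37.9 at 5 h, and 59.3, 56.4 and 75.3 at 24 h. Arrays at 24 h lay above all others. The rise was 0.79 ± 0.19 (adjusted p = 0.038, and 0.071 in centred arrays). It was called in 2 of 9 fits that left out 1 array, with an adjusted p of 0.14 without control replicate 2. Against 5 h the rise was 0.68 ± 0.19 (adjusted p = 0.046), called in 1 of 9 such fits.

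SLC29A1 read 1629, 2060.2 and 804 in control, 2114, 2389 and 804 at 5 h, and 1400.3, 1313 and 506 at 24 h. Replicate 3 was low in every group, and each 24 h array lay below the other arrays of its number. The change was -0.50 ± 0.54 (adjusted p = 0.68, and 0.0054 with the block), so SLC29A1 and SLC29A2 moved in opposite directions with the block.

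SLC19A1, the reduced folate carrier, read 204, 212 and 105 in control, 218, 267 and 122 at 5 h, and 102, 108 and 58.8 at 24 h. The 3 arrays at 24 h lay below all 5 h arrays and, through control replicate 3, overlapped control. The change was -0.83 ± 0.36 against control (adjusted p = 0.20, and 0.00072 with the block) and -1.02 ± 0.36 against 5 h (adjusted p = 0.092, and 0.00019 with the block). SLC17A9, which loads nucleotides into secretory vesicles, read 486, 360.5 and 254 in control, 236, 304 and 127 at 5 h, and 232, 170.1 and 162 at 24 h. Its 24 h arrays lay below all control arrays, and the fall was -0.88 ± 0.33 (adjusted p = 0.15, and 0.0059 with the block). SLC46A3, a lysosomal carrier, rose with the block from 42.3 ± 4.31 to 70.1 ± 20.1 (change 0.54, adjusted p = 0.023).

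Carriers of organic ions, bile acids and amines were 17 members, of which 9 were tested. At 24 h 0 passed limma's test without the block, where 3 had an unadjusted p under 0.05. With the block 2 rose and 2 fell, 44.4% of the group beside 35.8% of all tested probe sets. SLC22A17, a receptor for the iron-binding protein lipocalin-2, read 220.4, 109 and 134 in control, 146, 119.6 and 141 at 5 h, and 309, 181 and 249 at 24 h. Each 24 h array lay above the control array of its number, though control replicate 1 overlapped the 24 h range. The rise was 0.64 ± 0.27 (adjusted p = 0.20, and 0.0073 with the block). SLC22A5, the carnitine carrier OCTN2, fell with the block from 111 ± 40.8 to 65.6 ± 8.31 (change -0.59, adjusted p = 0.015), while its second probe set gave 0.28.

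SLC51B, a subunit of an organic solute exporter, fell with the block from 32.6 ± 8.85 to 13.1 ± 1.21, near the floor (change -0.73, adjusted p = 0.052 without the block and 0.0083 with it). SLC51A, the other subunit, lay below the filter. SLC6A8, the carrier of creatine, an organic osmolyte, rose with the block from 125 ± 19.4 to 163 ± 31.1 (change 0.34, adjusted p = 0.046), a call not kept with centring (0.089), and its second probe set gave -0.05. SLC10A1, a bile acid carrier, had overlapping means of 215 ± 53 and 249 ± 65.2.

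Creatine is handled in muscle too, and of the skeletal muscle markers CKM alone passed at 24 h. Of 5 markers 4 had a probe set, with a summed intensity between 961.7 and 1246.4 in control, 1279.9 and 3544.5 at 5 h, and 2252.8 and 3690.6 at 24 h. Most of it was CKM, the muscle creatine kinase, which rose from a control mean of 641.4 to 2652 at 24 h (adjusted p = 0.0315). ACTA1 went the other way, from 306.7 to 198.4, and MYH7 from 136.7 to 197.1, and neither passed. TNNT1, at 5.867 and 14.4, lay below the filter. The part of muscle cells in the SLC6A8 value was not tested. The summed markers of endothelium and red blood cells overlapped between all groups.

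None of the 6 tested carriers of lipids, choline and acetyl-CoA, the 3 of carboxylates or the 2 genes that are not transporters passed limma's test at 24 h, with or without the block, and 0 of them had an unadjusted p under 0.05 without it. With the block and centring, SLC27A1, a fatty acid transport protein, fell at 24 h (centred change -0.33, adjusted p = 0.048; 0.11 with the block alone). The second, dimmer SLC27A1 probe set disagreed, with changes before centring of 0.14 at 24 h and 0.18 against 5 h. SLC33A1, the acetyl-CoA carrier of the endoplasmic reticulum, had means of 709 ± 139, 847 ± 193 and 608 ± 119, and fell from 5 h to 24 h with the block (change -0.46, adjusted p = 0.0072). With centring added, SLC27A1 and SLC44A4 also fell from 5 h to 24 h (adjusted p = 0.038 and 0.042; 0.24 and 0.10 with the block alone). SLC44A2, a choline carrier, changed by 0.04 ± 0.44 at 24 h. SLC16A13, a monocarboxylate carrier, had means of 149 ± 18.9, 117 ± 2.4 and 161 ± 11.9. All its 5 h arrays lay below all control and 24 h arrays, and the change at 5 h was -0.31 ± 0.16 (adjusted p = 0.82, and 0.17 with the block). SLC4A1AP, named for binding an anion exchanger, changed by 0.20 ± 0.17 at 24 h, and SLC5A5, the iodide carrier, lay below the filter.

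**Figure D4:**
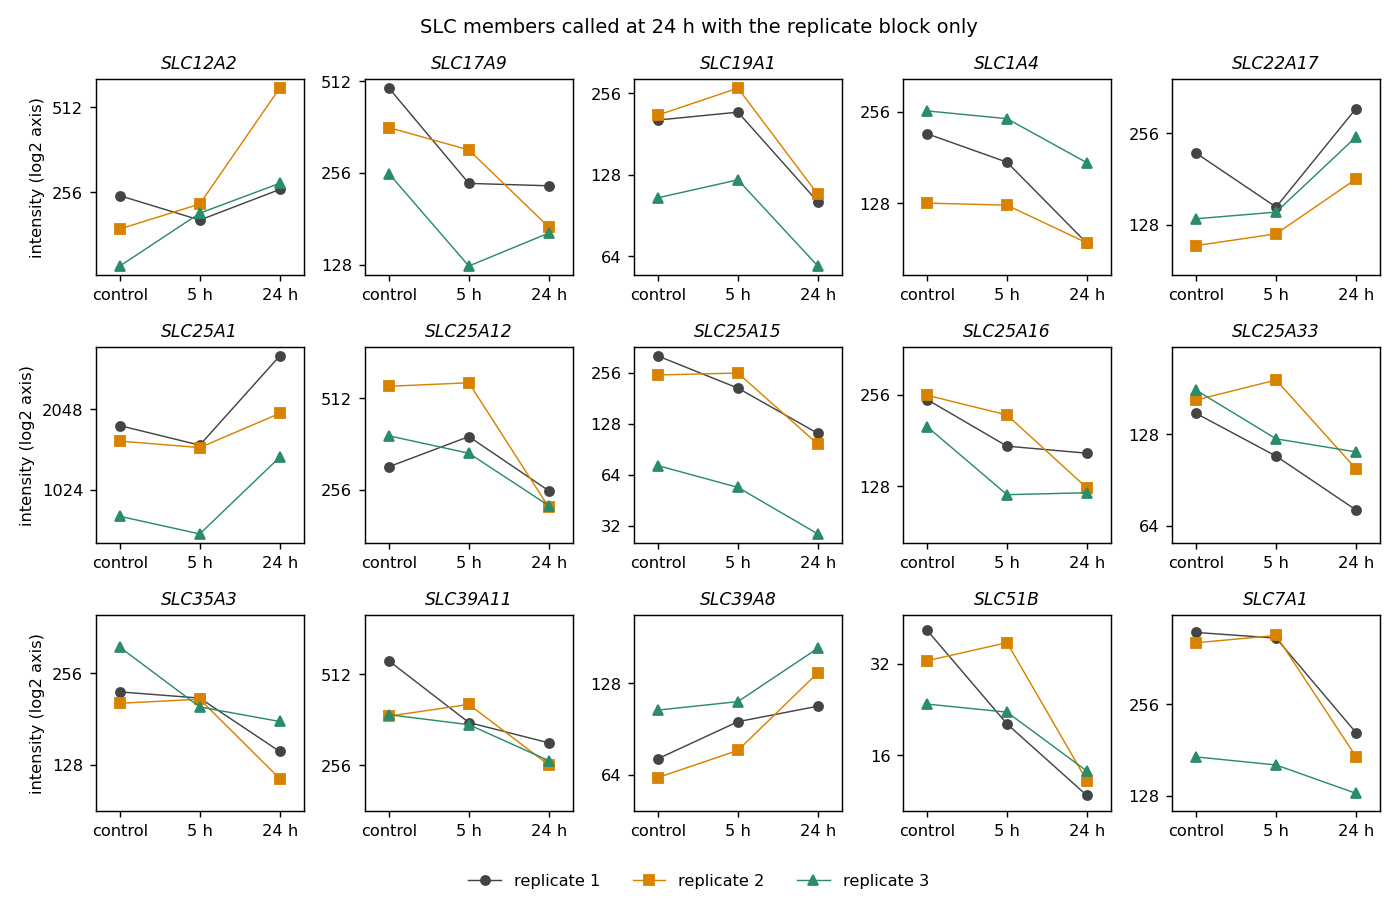
Intensity on a log2 axis of 15 members called at 24 h with the replicate block, in both scalings and with a change of at least 0.6, but not without the block, with 1 line per replicate number. In each panel all 3 lines run the same way from control to 24 h, which choosing by the blocked fit favours. Replicate 3 lies apart from the others in all 3 groups in SLC19A1, SLC25A15 and SLC7A1, and is the lowest in each group in SLC25A1.

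Over the tested members, 14 had all 24 h arrays above all control arrays and 17 had all below. These are 10.5% and 12.8% of members, beside 13.9% and 13.5% of all tested probe sets. Against 5 h the counts at 24 h were 22 and 15, or 16.5% and 11.3%, beside 18.1% and 14.3%. At 5 h against control they were 2 and 8, or 1.5% and 6.02%, beside 4.04% and 6.6%.

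The 35 members below the filter include the glucose carriers SLC2A2 and SLC5A1, the glutamate carriers SLC1A1, SLC1A3 and SLC17A6, the phosphate carriers SLC34A1 and SLC34A2, and the anion exchanger SLC4A1 of red blood cells. By group they were 9 of 24 amino acid carriers, 8 of 17 carriers of organic ions, 4 of 31 sugar carriers, 4 of 11 for bicarbonate, sulphate and phosphate, 2 of 27 mitochondrial carriers and 1 of 21 metal carriers. The lipid group, the nucleoside and vitamin group and the genes of other or uncertain substrate had 2 each, and the calcium group had 1. A low signal on this array may reflect the probes, so absence of these transcripts is not shown.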

How the data were processed

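Per the submitters' processing notes, the authors used PLIER and Affymetrix Expression Console; the deposited values are linear intensities, here taken for 24016 probe sets outside the manufacturer's controls. Their versions and any normalization between arrays were not given in the sources used here, and none was added. Symbols came from the platform annotation, and matching to a current bovine gene table (ARS-UCD2.0) changed 0 of them.

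Values were transformed as log2(intensity + 16), which understates changes of dim probe sets, and the 18012 probe sets at or above the 25th percentile entered 1 model of the 9 arrays (limma 3.58.1 under R 4.3.3: lmFit, then eBayes with trend; Benjamini-Hochberg within each comparison). The number of arrays limits the precision. The test without the block was run on simulated data with noise drawn independently for each array. That check covered neither the link between same-numbered arrays nor the fit with the block. Deviations of same-numbered arrays correlated at 0.564 to 0.896 in all 9 cross-group pairs, and others at -0.78 to 0.545, so the labels' replicate numbers pair the arrays and a fit with the number as a block is given beside the first. The SE after ± is that of the fit without the block unless stated, and ± after a mean is the SD of 3 arrays.

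Members, substrate groups and lists were chosen with earlier results of these data known. Genes were named if called (at 24 h minus 5 h the 6 with the largest rise or fall), if brightest in their group, or from 37 set names, and 36 were named this way. The other members named, among them those called only with the block, were chosen after their values were seen. Fits without a replicate number were added after seeing the data.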

Additional observations from a re-analysis of the deposited data

Results flagged for a closer look

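The changes from control at 5 h and 24 h share their control arrays, and limma's test of 24 h minus 5 h compares the salt groups directly. With no control matched to either time, time in culture and salt cannot be told apart here either. By that test 9 members differed between the times (adjusted p under 0.05), 6.77% of those tested beside 14.2% of all tested probe sets. The log2 difference was 0.889 for SLC9A5, 0.843 for SLC7A7, 0.830 for SLC43A2, 0.714 for SLC38A7, 0.70 for SLC31A2, 0.681 for SLC8B1 and 0.678 for SLC29A2. It was -0.836 for SLC25A5 and -0.561 for SLC31A1. SLC7A7 and SLC29A2 had values above control at both times, while the other 7 had values on opposite sides of control at 5 h and 24 h. Of these 7, SLC43A2 alone passed at 5 h against control, and with the replicate block only. In centred arrays 2 of the 9 were called, SLC25A5 and SLC31A1, and with the block and centring all 9 were.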

How the results depend on the processing

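At 5 h the count of members called without the block was 0 in every planned setting and leave-one-out fit. With the replicate block it was 2, with the block and centred arrays 1, and without replicate number 2 in the blocked fit 8. Of all tested probe sets, 5.86% were called with the block and 5.77% with the block and centring. At 24 h against control the 4 calls became 44 with the replicate block, 41 with the block and centring, 2 with no intensity filter and 1 with only the 6 arrays compared. The share of all probe sets called went from 8.61% to 35.8%, 35.9%, 5.52% and 4.45% in the same order. Leaving out 1 array gave 0 to 4. Leaving out replicate number 1, 2 or 3 in every group gave 0, 0 and 7 calls, and 27, 33 and 17 with the block.

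At 24 h against 5 h the 9 calls became 52 with the replicate block, 49 with the block and centring, and 5 with quantile normalization. The share of all probe sets called went from 14.2% to 43.8%, 44.5% and 12.5% in the same order. Leaving out 1 array gave 1 to 8, and leaving out replicate number 1, 2 or 3 gave 0, 0 and 14, and 30, 42 and 28 with the block. The median change over members in this comparison, 0.0782, became 0.105 with a pseudocount of 1, 0.0524 with 64, 0.0565 with no filter, 0.063 with a filter at the 50th percentile, -0.00333 with quantile normalization and -0.0753 in centred arrays, with or without the block. Leaving out 1 array gave 0.0108 to 0.131, and leaving out replicate number 3 gave 0.0922 in both fits. The mean of all probe sets of a gene turned the change of SLC25A5 to 0.286 at 24 h and 0.102 against 5 h. Of the 36 members named by rule, no other called change reversed in the settings run, and the other members were not followed singly through all of them. Fits without a replicate number and without the block leave 2 arrays a group, so a low count there says little about stability.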
